A study of Bos taurus with 12 samples.

Results

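Granulosa cells of subordinate follicles (SF) and of dominant follicles (DF) were compared on day 7 of the bovine estrous cycle by their small RNA. The comparison used 6 of the 12 libraries of the study, 3 biological replicates of SF and 3 of DF, and covered 350 miRNAs of the 755 mature bovine names listed. To enter, a miRNA needed 1 read or more in 2 or all 3 replicates of SF or of DF, and for a name listed under several precursors the entry with the most reads in the study was taken. The cells came from Simmental heifers (Bos taurus), all synchronized with a prostaglandin F2α analogue and a GnRH analogue and slaughtered on day 7. Follicles were assigned to SF or DF by diameter, SF being the smaller, and the fluid of follicles of a size class was pooled before the granulosa cells were pelleted. The SF libraries are therefore pools of follicles, and the labels tie no replicate to an animal. On day 7 no more dominant follicles were collected than there are DF libraries, and how they were divided among these is not given in the sources used here. Without a record of separate animals behind the replicates, p-values measure only the spread between these 6 samples.

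Granulosa cells line the follicle, surround the oocyte with their cumulus layer, and make estradiol from androgens supplied by the theca. In each follicular wave of the cow a single follicle becomes dominant and keeps growing while FSH declines, and the subordinate ones regress by atresia. miRNAs are short RNAs that bind by their seed, near the 5′ end, to complementary sites in mRNAs and lower the stability and translation of these transcripts. Members of a family share a seed, and members of a cluster are cut from a common primary transcript.

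The 6 libraries held between 160418 reads (DF replicate 2) and 326345 reads (DF replicate 3) on known miRNAs, and 3 reads corresponded to between 0.000919% and 0.00187% of a library, a floor that covers counting error only. Of the 350 miRNAs, 232 had a read in every library, 188 had a mean of at least 10 reads per library and 38 a mean of at least 1000. With the detection rule 314 miRNAs were found in SF and 315 in DF, 279 of them in both, 35 in SF alone and 36 in DF alone. Detection at the limit rested on few reads, since the 17 miRNAs that met the rule with exactly 2 libraries had at most 4 reads in all, and the 91 names just below it at most 6. Normalized counts, given below for each library, are raw counts divided by a size factor taken over all 12 libraries. The ranks of the 188 miRNAs with at least 10 reads were alike within a class, with Spearman coefficients between 0.946 and 0.976 in SF and between 0.937 and 0.983 in DF, and lay between 0.737 and 0.88 across the classes. The gonad miRNA bta-miR-202 was present in all 6 libraries, as were blood cell miRNAs described below. Messenger RNA markers of granulosa cells were not measured.

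Called differentially expressed here are miRNAs whose log2 fold change reached 1 or -1 with p up to 0.05 and a false discovery rate up to 10% by edgeR's quasi-likelihood F test, and a positive log2 fold change means higher in SF. Of the 350 miRNAs 117 were differentially expressed (33.4%), 53 higher in SF (15.1%) and 64 lower in SF (18.3%). With a mean of at least 10 reads the share was 84 of 188 (44.7%), 37 higher and 47 lower, and below 10 reads it was 33 of 162 (20.4%). The counts of the 3 SF and the 3 DF libraries did not overlap for 115 of the 188 more abundant miRNAs (61.2%), whatever their call. Among the 38 miRNAs with a mean of at least 1000 reads 18 were called, so the differences reached the most abundant species. The median log2 fold change of all 350 miRNAs was -0.05, and the median absolute log2 fold change of the 188 was 0.87. The counts of called members given below for a family are to be read against these shares, which are high for abundant miRNAs in general.

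**Figure D1:**
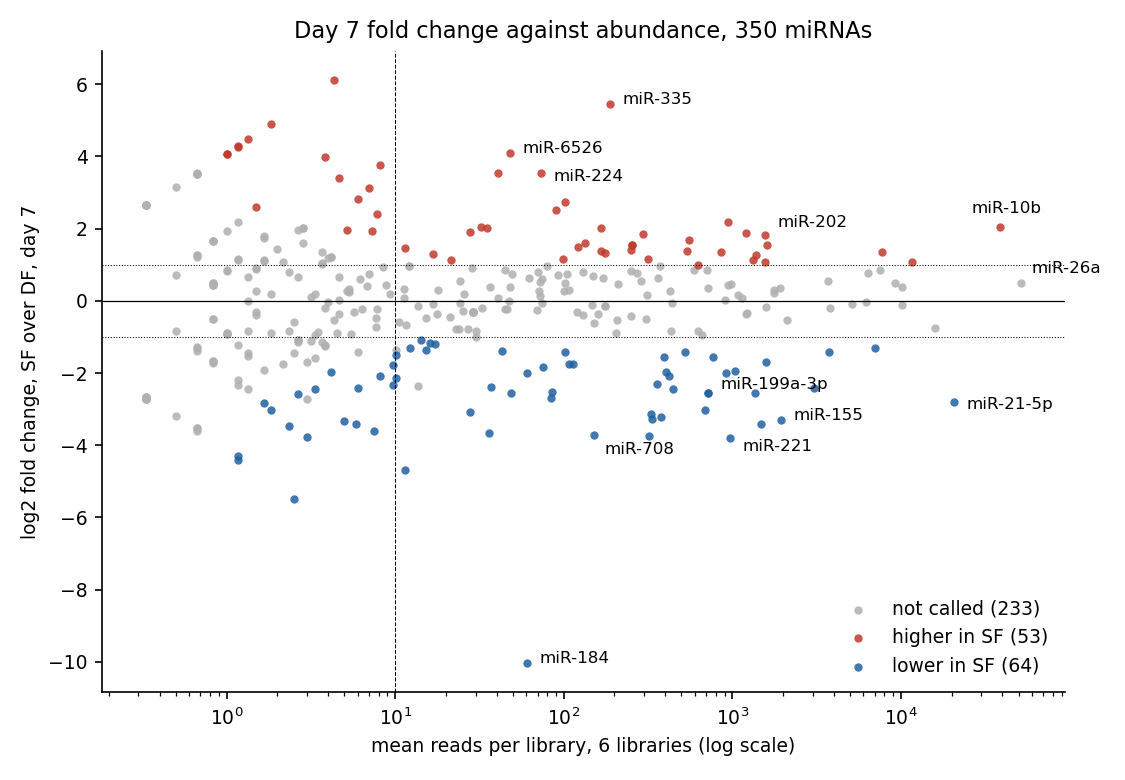
Each point is 1 of the 350 miRNAs, with the mean raw reads per library on a log axis and the log2 fold change of SF over DF; dotted lines mark log2 values of 1 and -1, and the dashed line 10 reads. Called miRNAs (53 higher and 64 lower in SF) span the whole range of abundance, with bta-miR-10b and bta-miR-21-5p among the most abundant and bta-miR-184 at the bottom, without a read in SF.

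The composition of the libraries differed accordingly. The 53 miRNAs higher in SF made up 38.6%, 35.1% and 37.9% of the reads of the SF libraries and 13.4%, 12.0% and 13.0% of the DF libraries. The 64 miRNAs lower in SF made up 4.45%, 7.93% and 5.42% in SF and 32.3%, 34.8% and 31.4% in DF. These shares describe the called sets and test nothing, as the sets were chosen for their difference. The most abundant member of each set carried much of it. Without bta-miR-10b the first set held 16.3% ± 2.78 (SD, n = 3) of reads in SF and 7.16% ± 1.09 in DF, and without bta-miR-21-5p the second held 4.25% ± 0.848 and 19.5% ± 3.64. Because reads are shares of a library, and the libraries are bulk samples, fewer cells of a type and less of a miRNA per cell cannot be told apart in any of these values.

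The 10 most abundant miRNAs were bta-miR-26a, bta-miR-10b, bta-miR-21-5p, bta-miR-27b, bta-miR-99b, bta-let-7a-5p, bta-let-7f, bta-let-7i, bta-miR-92a and bta-miR-191. bta-miR-10b, a miRNA of the HOXD gene cluster, had normalized counts of 51314, 58693 and 72455 in SF and 14727, 16216 and 15530.0 in DF. The SF libraries all stood above the DF libraries, which lay close to each other (log2 fold change 2.04 ± 0.19, adjusted p = 6.09e-05). It was the most abundant miRNA in SF replicates 1 and 3, where it took 19.1% and 23.0% of reads, whereas bta-miR-26a led in SF replicate 2 and in the 3 DF libraries. bta-miR-21-5p, which is known to keep mouse granulosa cells from apoptosis and to rise after the LH surge, had 2206, 7805 and 4761 in SF and 36995, 29826 and 43268 in DF (log2 fold change -2.81 ± 0.41, adjusted p = 0.000507). Its share of reads was 1.68% ± 0.962 in SF and 13.3% ± 1.88 in DF, and the groups did not overlap although the SF libraries ranged 3.54-fold among themselves. bta-miR-92a was higher in SF (log2 fold change 1.34 ± 0.21, adjusted p = 0.000909), as was bta-miR-99b (log2 fold change 1.09 ± 0.28, adjusted p = 0.0134), whose value lay close to the threshold and fell under it without SF replicate 1 (0.82), without DF replicate 2 (0.86) and with library size alone (0.95). bta-miR-27b (log2 fold change -0.76 ± 0.21, adjusted p = 0.0188) and bta-miR-191 (log2 fold change 0.87 ± 0.21, adjusted p = 0.0102) passed the test but not the fold threshold. The remaining 4 were not called: bta-miR-26a had a log2 fold change of 0.49 ± 0.22, bta-let-7f 0.39 ± 0.18, bta-let-7i 0.49 ± 0.26 and bta-let-7a-5p -0.10 ± 0.17, with adjusted p between 0.115 and 0.649.

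Among miRNAs with at least 10 reads the largest increase in SF was that of bta-miR-335, with normalized counts of 251, 339 and 483 in SF and 5.99, 14.97 and 6.30 in DF (log2 fold change 5.46 ± 0.44, adjusted p = 4.25e-05). This miRNA lies in an intron of the imprinted gene MEST, and it was abundant in every SF library and scarce in every DF library. bta-miR-6526 followed with 91.8, 74.8 and 92.6 in SF and 6.84, 4.99 and 3.60 in DF (log2 fold change 4.10 ± 0.36, adjusted p = 4.25e-05). bta-miR-224, which TGF-β induces in mouse granulosa cells and which is known there to target Smad4, had 172, 111 and 98.4 in SF and 11.1, 6.65 and 15.3 in DF (log2 fold change 3.55 ± 0.38, adjusted p = 0.000159). bta-miR-452 comes from the same transcript, and it had 10.7, 9.10 and 16.6 in SF and 2, 0 and 2 raw reads in DF (log2 fold change 3.13 ± 0.67, adjusted p = 0.00595). In the RefSeq annotation (assembly ARS-UCD2.0, not the build of the counts) bta-miR-3431 is a neighbour of bta-miR-224, and the fold changes of both were nearly equal, at 3.53 and 3.55. All 3 miRNAs of this locus were thus higher in SF without overlap between the groups, which for bta-miR-224 and bta-miR-3431 was a condition of their choice.

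Further down the list of increases stood bta-miR-1343-3p (184, 139.6 and 182 in SF and 27.4, 16.6 and 34.2 in DF, log2 fold change 2.74 ± 0.30, adjusted p = 0.000203) and bta-miR-2285k of a family particular to ruminants (206, 113 and 117 in SF and 33.4, 31.6 and 16.2 in DF, log2 fold change 2.51 ± 0.38, adjusted p = 0.000712). bta-miR-92b had 1935, 1172 and 1279 in SF and 316, 279 and 419 in DF (log2 fold change 2.19 ± 0.27, adjusted p = 0.000283), and it shares its seed with bta-miR-92a, whose log2 fold change was 1.34. bta-miR-744 (log2 fold change 2.06 ± 0.40, adjusted p = 0.00315) and bta-miR-505 (log2 fold change 2.02 ± 0.44, adjusted p = 0.00651) were less abundant, with SF means of 49.3 ± 16.7 and 53.1 ± 17.9 (SD, n = 3) against DF means of 12.4 ± 4.33 and 13.4 ± 7.89. In all of these the 3 SF libraries lay above the 3 DF libraries, which was a condition for entering the list of increases.

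The gonad markers were bta-miR-202, which is enriched in ovary and testis, and bta-miR-383, known to promote estradiol release from mouse granulosa cells. bta-miR-202 was higher in SF, with 2474, 2213 and 2243 in SF and 753, 364 and 976 in DF (log2 fold change 1.81 ± 0.31, adjusted p = 0.00155), and the DF libraries varied 2.68-fold. bta-miR-383 was called higher in SF too (log2 fold change 4.28 ± 1.31, adjusted p = 0.0387), but it rested on 7 reads in SF and none in DF, and the call was lost without SF replicate 1 or without DF replicate 1, with log2 values of 4.11 and 4.23.

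**Figure D2:**
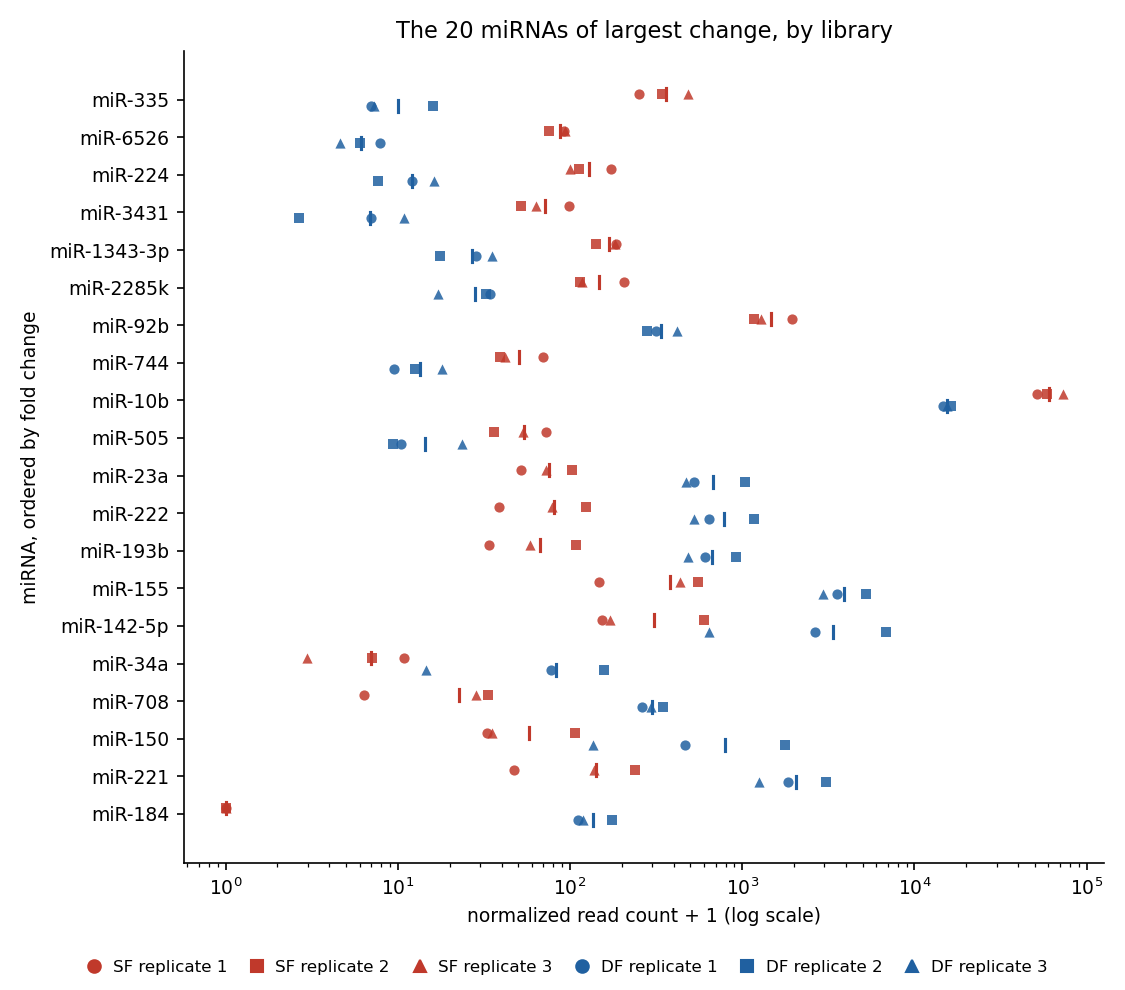
Normalized read count plus 1 (log axis) in each of the 6 libraries for the 10 largest increases and the 10 largest decreases in SF among called miRNAs with at least 10 reads and no overlap; symbols mark replicates and short vertical bars the group means. SF (red) and DF (blue) are apart for every miRNA shown, and among the decreases SF replicate 2 and DF replicate 2 (squares) are often the highest of their group.

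Among the decreases bta-miR-184 had no read in the 3 SF libraries and 110.3, 175 and 118 normalized counts in the 3 DF libraries (365 raw reads, adjusted p = 4.25e-05). Against a floor of 3 reads over the SF group its level was at least 140.4-fold lower in SF. The fitted log2 value of -10.04 depends on the prior count and moved to -6.06 with a prior count of 2. A further 10 called miRNAs lacked reads in a whole group, and they had between 6 and 26 reads in the other. bta-miR-365-5p (15 reads in DF), bta-miR-2389 and bta-miR-2487 (7 each in DF) were without a read in SF. The other 7 were without a read in DF, namely bta-miR-196a and bta-miR-665 (6 reads each in SF), bta-miR-383 and bta-miR-2404 (7 each), bta-miR-2446 (8), bta-miR-409a (11) and bta-miR-2332 (26). Of these 10, only bta-miR-365-5p, bta-miR-2332 and bta-miR-409a kept their call without each library in turn. The others lost it without 1 or more of the libraries, each of the 6 deciding at least 1 call, at fitted log2 values between 3.67 and 4.43 for those higher and between -4.63 and -3.29 for those lower in SF. Against the floor of 3 reads over the group without reads, bta-miR-2332 was at least 8.1-fold higher, bta-miR-409a at least 3.4-fold higher and bta-miR-365-5p at least 6.5-fold lower in SF.

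The cluster of miR-221 and miR-222, whose miRNAs are known to repress the cell cycle inhibitor p27 and the receptor KIT, was lower in SF in both members. bta-miR-221 had 46.3, 239 and 137 in SF and 1846, 3074 and 1245 in DF (log2 fold change -3.80 ± 0.58, adjusted p = 0.000712). bta-miR-222 had 37.4, 122 and 78.0 in SF and 644, 1164 and 526 in DF (log2 fold change -3.23 ± 0.48, adjusted p = 0.000596). The SF libraries of bta-miR-221 spread 5.15-fold, with replicate 2 the highest, and even that library lay far below the lowest DF library.

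miR-21 and miR-155 are both known as anti-apoptotic miRNAs, and bta-miR-155 is made by activated lymphocytes and macrophages as well. All 3 tested names were lower in SF. The passenger strand bta-miR-21-3p followed its partner, with 52.6, 224 and 156 in SF and 1205, 1079.5 and 1462 in DF (log2 fold change -3.04 ± 0.45, adjusted p = 0.000615). bta-miR-155 had 146, 555 and 433 in SF and 3565, 5215 and 2937 in DF (log2 fold change -3.30 ± 0.47, adjusted p = 0.000488), so the groups did not overlap and the SF libraries spread 3.8-fold. Its level was the highest in replicate 2 of both classes, the libraries with the most leukocyte miRNA reads, and without both of these libraries its log2 fold change was -3.43 (adjusted p = 6.9e-06).

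The names of miR-199 and miR-214 were lower in SF in 5 of 5. Matched by family number, they need not all come from the antisense RNA within the dynamin 3 gene that is active in mesenchymal cells. Of the 5, bta-miR-199c shares nearly all its reads with bta-miR-199a-3p and adds no separate evidence. bta-miR-199a-3p had 174, 236 and 207 in SF and 1225, 1228 and 1338 in DF (log2 fold change -2.55 ± 0.22, adjusted p = 4.25e-05). bta-miR-214 had 20.5, 22.3 and 21.4 in SF and 138, 105 and 193 in DF (log2 fold change -2.68 ± 0.30, adjusted p = 0.000203), bta-miR-199a-5p a log2 fold change of -2.07 ± 0.26 and bta-miR-199b one of -2.38 ± 0.35. Here the replicates were close to each other in both classes. The cluster of miR-143 and miR-145, abundant in smooth muscle and stromal cells, gave 1 call in 2: bta-miR-143 was lower in SF with 2793, 4701 and 3836 in SF and 9633, 6474 and 13883 in DF (log2 fold change -1.32 ± 0.29, adjusted p = 0.00727), and bta-miR-145 had a log2 fold change of -0.88 ± 0.35 (adjusted p = 0.0787), under the fold threshold.

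In the clusters of miR-23, miR-27 and miR-24 4 of 7 tested names were lower in SF and none higher, with a median log2 fold change of -1.91 against -0.05 over all 350. bta-miR-23a had 50.8, 101 and 71.1 in SF and 522, 1041 and 471 in DF (log2 fold change -3.12 ± 0.41, adjusted p = 0.000408), bta-miR-27a-3p had 102, 178 and 142 in SF and 712, 922 and 763 in DF (log2 fold change -2.43 ± 0.28, adjusted p = 0.000203) and bta-miR-24-3p had 351, 484 and 455 in SF and 1619.8, 1991 and 1598 in DF (log2 fold change -1.94 ± 0.23, adjusted p = 0.000259). bta-miR-23b-3p, from a paralogous cluster, was lower too, with a smaller log2 value (log2 fold change -1.70 ± 0.29, adjusted p = 0.00144). The 3 uncalled names were bta-miR-27b and 2 with a mean of at most 2.5 reads. The miR-181 family, best known from lymphocyte development, was lower in SF in 4 of 4 members. Its most abundant member bta-miR-181a had 678, 1175 and 1144 in SF and 4956, 6662 and 4996 in DF (log2 fold change -2.40 ± 0.28, adjusted p = 0.000203). bta-miR-181b followed with -2.30 ± 0.27, bta-miR-181c with -1.83 ± 0.35 and bta-miR-181d with -1.51 ± 0.47 on the log2 scale, the last a call lost without DF replicate 1 (log2 fold change -1.50).

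The miR-29 family, which targets collagen transcripts, gave 2 lower of 4, bta-miR-29a (159, 372 and 302 in SF and 745, 717 and 886 in DF, log2 fold change -1.42 ± 0.31, adjusted p = 0.00685) and bta-miR-29b (log2 fold change -2.15 ± 0.49, adjusted p = 0.00824). The other members were scarce and not called, with log2 values of -0.92 ± 0.79 for bta-miR-29c and -1.52 ± 1.24 for bta-miR-29d. Both arms of miR-455 were lower in SF, bta-miR-455-3p with 4.46, 9.10 and 3.90 in SF and 41.9, 56.6 and 60.3 in DF (log2 fold change -3.09 ± 0.42, adjusted p = 0.000418) and bta-miR-455-5p with a mean of 7.5 raw reads (log2 fold change -3.60 ± 0.82, adjusted p = 0.00812). In the family of miR-28, miR-151 and miR-708 bta-miR-708 (5.35, 32.4 and 27.3 in SF and 261, 346 and 293 in DF, log2 fold change -3.72 ± 0.51, adjusted p = 0.000418) and bta-miR-28 (log2 fold change -1.74 ± 0.35, adjusted p = 0.00372) were lower, and the arms bta-miR-151-5p and bta-miR-151-3p had log2 values of 0.30 ± 0.20 and 0.22 ± 0.19 without a call. bta-miR-193b, which had 33.0, 107.2 and 57.5 in SF and 605, 915 and 485 in DF (log2 fold change -3.27 ± 0.45, adjusted p = 0.000418), completes the 10 largest decreases without overlap between the groups. bta-miR-483, with a mean of 11.5 raw reads, was also called lower, with a log2 fold change of -4.685. It was left out of the 10 because its groups overlapped.

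The family of miR-34 and miR-449 acts on the cell cycle, and miR-34 does so downstream of p53. bta-miR-34a was lower in SF, with 9.80, 6.07 and 1.95 in SF and 76.1, 156 and 13.5 in DF (log2 fold change -3.66 ± 0.85, adjusted p = 0.00854), and the DF libraries spread widely. Without DF replicate 2 its log2 fold change was -2.80 (adjusted p = 0.058), still called. bta-miR-449b was called on a mean of 2.7 raw reads (log2 fold change -2.58 ± 0.88, adjusted p = 0.0474), a call lost without SF replicate 2, DF replicate 1 or DF replicate 3, with log2 values of -2.11, -2.29 and -2.48. bta-miR-449a, with a mean of 25.2 raw reads, had -0.29 ± 0.76 (adjusted p = 0.769), and neither it nor bta-miR-449c (-1.35 ± 0.85) and bta-miR-34c (-1.14 ± 1.02) was called. That made 2 lower of 5 tested, with a median of -1.35.

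**Figure D3:**
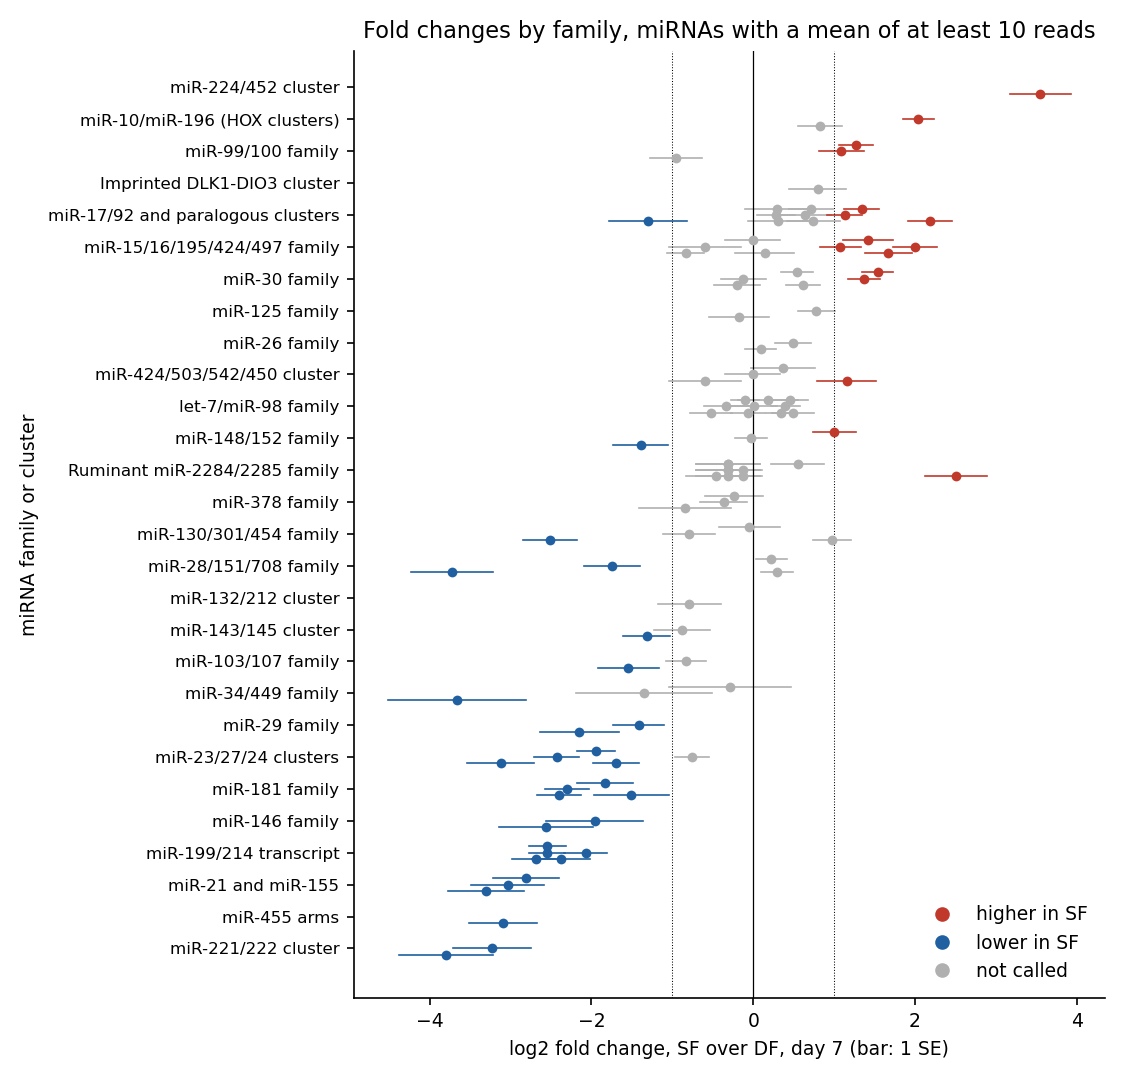
Log2 fold change of SF over DF, with bars of 1 SE, for every member with a mean of at least 10 reads of the families and clusters described, ordered by their median; colours mark the call and dotted lines log2 values of 1 and -1. The lists of miR-21, miR-155, miR-221, miR-199, miR-146 and miR-181 lie wholly below -1, let-7 stays between -0.52 and 0.49, and the lists of miR-17 and miR-15 extend to the right.

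The let-7 family, miR-98 included, was the largest of the families examined without a call. It is known from differentiation, as its members repress proliferation genes. None of its 10 tested names, the opposite arm bta-let-7a-3p among them, was differentially expressed, with a median log2 fold change of 0.10 and values between -0.52 and 0.49. The member nearest to the test was bta-let-7f, with 11539.5, 9918 and 11770.2 in SF and 8255, 8242 and 10118 in DF (adjusted p = 0.122). The miR-26 family also had no call in 2, bta-miR-26b standing at 1084, 1122 and 1223 in SF and 1188, 1121 and 1077 in DF (log2 fold change 0.09 ± 0.19, adjusted p = 0.722). The 2 members of the miR-125 family lay on different sides of 0 without a call. bta-miR-125a had a log2 fold change of 0.78 ± 0.23 (adjusted p = 0.0267), and bta-miR-125b one of -0.18 ± 0.37 with DF replicate 2 well above the other libraries (1409, 1666 and 1612 in SF and 1440.2, 3049 and 1028 in DF).

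Of the miR-30 family, 2 of 6 members were higher in SF. These were the pair cut from an intron of NFYC, bta-miR-30e-5p (2482, 2193 and 2186 in SF and 802, 817 and 868 in DF, log2 fold change 1.54 ± 0.19, adjusted p = 0.000322) and bta-miR-30c (1200.2, 1102 and 1258 in SF and 479, 479 and 493 in DF, log2 fold change 1.37 ± 0.20, adjusted p = 0.000492). bta-miR-30b-5p (0.62 ± 0.21) and bta-miR-30d (0.55 ± 0.20), which neighbour each other elsewhere in the genome, had smaller values and no call. In the family of miR-99 and miR-100 bta-miR-99a-5p was higher in SF beside bta-miR-99b (2162, 1702 and 1765 in SF and 910.0, 803 and 735 in DF, log2 fold change 1.27 ± 0.21, adjusted p = 0.00112), while bta-miR-100 had 518, 439 and 429 in SF and 1006, 1259 and 539 in DF (log2 fold change -0.95 ± 0.32, adjusted p = 0.0425), just under the fold threshold in the other direction. bta-miR-99a-3p was not called (0.19 ± 0.50). With bta-miR-10b, bta-miR-196a of the HOX clusters was called on 6 reads, and bta-miR-10a had 0.83 ± 0.27 (adjusted p = 0.0402).

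The family of miR-15 and miR-16, known to target BCL2 and cyclins, had its calls at some of its loci and not at others. bta-miR-497 (314, 203 and 250.5 in SF and 54.7, 68.2 and 78.3 in DF, log2 fold change 2.00 ± 0.27, adjusted p = 0.000418) and bta-miR-195 (675, 846 and 889 in SF and 292, 159.7 and 346 in DF, log2 fold change 1.67 ± 0.29, adjusted p = 0.00155) are neighbours, and both were higher in SF. bta-miR-15b (471, 281 and 304 in SF and 137, 176 and 103 in DF, log2 fold change 1.42 ± 0.31, adjusted p = 0.00651) and bta-miR-16b (2502, 1699 and 2006 in SF and 974, 1266 and 837 in DF, log2 fold change 1.08 ± 0.25, adjusted p = 0.00824) are likewise neighbours that were both higher, the second losing its call with library size alone (0.94), without SF replicate 1 (0.93) and without DF replicate 3 (0.93). The other pair, bta-miR-16a and bta-miR-15a, had log2 values of -0.83 and 0.14 and no call. That made 4 higher of 8, with a median of 0.61. Of miR-424, miR-450 and their neighbours, 1 of 6 was higher, bta-miR-450b with 625, 298 and 306 in SF and 181, 128 and 273 in DF (log2 fold change 1.16 ± 0.36, adjusted p = 0.0338), lost without SF replicate 1 (0.74) and without DF replicate 2 (0.94).

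The miR-17-92 cluster and its paralogs drive proliferation in many tissues. Of 14 tested names 3 were higher and 1 lower in SF, with a median log2 fold change of 0.47 and 10 positive values. They were matched by family number and not by locus, so bta-miR-92b need not belong to these clusters. The higher ones were bta-miR-92b, bta-miR-92a and bta-miR-25 (1901, 1533 and 1779 in SF and 778, 697 and 1033 in DF, log2 fold change 1.13 ± 0.22, adjusted p = 0.00292), and bta-miR-25 fell to 0.99 with library size alone. The lower one was bta-miR-17-3p (log2 fold change -1.30 ± 0.48, adjusted p = 0.0628), a strand with a mean of 12.3 raw reads whose call was lost without each of 5 libraries, with log2 values between -1.43 and -0.96.

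Other families gave few calls. bta-miR-130b was lower in SF with 15.1, 31.4 and 30.2 in SF and 139, 176 and 146 in DF (log2 fold change -2.51 ± 0.33, adjusted p = 0.000418), whereas bta-miR-130a of the same seed had 421, 474 and 549.6 in SF and 253, 298 and 221 in DF and a positive log2 fold change of 0.97 ± 0.24 (adjusted p = 0.0102), below the threshold by a small margin. bta-miR-454 and bta-miR-301b were not called (-0.79 ± 0.32 and -0.51 ± 1.17). The family of miR-148 and miR-152 held a call in each direction, bta-miR-152 lower (log2 fold change -1.39 ± 0.34, adjusted p = 0.0102) and bta-miR-148b higher (log2 fold change 1.004 ± 0.26, adjusted p = 0.0151), and bta-miR-148a was not called (-0.02 ± 0.20). bta-miR-148b was the called miRNA nearest to the fold threshold, and it lay between 0.80 and 0.94 under TMM, library size alone, a stricter filter, a fit of all 12 libraries and without SF replicate 1 or DF replicate 2. Of the pair of miR-103 and miR-107 bta-miR-107 was lower (147, 227 and 173 in SF and 579.8, 268 and 850.4 in DF, log2 fold change -1.54 ± 0.38, adjusted p = 0.0104) and bta-miR-103 had -0.84 ± 0.25 (adjusted p = 0.0267). Neither member of the cluster of miR-132 and miR-212, induced by LH in mouse granulosa cells, was called (-0.79 ± 0.39 for bta-miR-132 and 0.66 ± 0.71 for bta-miR-212), and none of the 3 miR-378 names was, of which bta-miR-378, known to target the aromatase transcript, had 1059, 1209 and 953 in SF and 1334, 2013 and 988 in DF (log2 fold change -0.36 ± 0.29, adjusted p = 0.358).

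Of the imprinted DLK1-DIO3 cluster, 12 of 55 listed names were tested and 2 were called, both higher in SF on few reads. These were bta-miR-409a and bta-miR-665, described above. The most abundant tested member was bta-miR-127, with 165, 169 and 134 in SF and 91.5, 48.2 and 144 in DF (log2 fold change 0.80 ± 0.35, adjusted p = 0.112). The ruminant family of miR-2284 and miR-2285 had 28 of 54 names tested, 2 higher and 1 lower in SF, with a median log2 fold change of -0.13. Beside bta-miR-2285k these were bta-miR-2284t-3p (log2 fold change 3.98 ± 0.97, adjusted p = 0.0104) and bta-miR-2285t (log2 fold change -3.34 ± 1.39, adjusted p = 0.0961), which had a mean of 5 raw reads and lost its call without DF replicate 2 (-1.83), SF replicate 1 (-2.75) or SF replicate 3 (-3.35). Several names of this family carry identical counts, so their values are not separate measurements.

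Blood cell miRNAs moved with the follicle class. The leukocyte list holds 4 names, all of them tested, of which 3 were lower in SF and 1 was not called. bta-miR-150, of mature lymphocytes, had 32.1, 105 and 34.1 in SF and 465, 1776 and 135 in DF (log2 fold change -3.74 ± 0.88, adjusted p = 0.00903), and bta-miR-142-5p, of all hematopoietic cells, had 151.5, 597 and 171 in SF and 2636, 6845 and 643 in DF (log2 fold change -3.40 ± 0.83, adjusted p = 0.0104). bta-miR-142-3p was called on a mean of 1.8 raw reads (log2 fold change -3.01 ± 1.20, adjusted p = 0.0831). It had no read in SF replicates 1 and 3, its groups overlapped, and its call was lost without SF replicate 1 (-2.51), SF replicate 3 (-2.57), DF replicate 1 (-2.85) or DF replicate 2 (-2.58). bta-miR-223, of myeloid cells, had 0.891, 2.02 and 3.90 in SF and 5.13, 8.32 and 4.50 in DF (log2 fold change -1.24 ± 0.68, adjusted p = 0.193). The summed normalized counts of the list were 184, 705.0 and 209 in SF and 3110.0, 8636 and 783 in DF, which corresponds to 0.0685%, 0.246% and 0.0663% of reads against 1.18%, 3.24% and 0.267%. No library was at 0 for the sum, the lowest DF sum stood only just above the highest SF sum, and DF replicate 2, the shallowest library, was the highest.

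Among 105 miRNAs abundant in DF the DF libraries spread most for these, 13.2-fold for bta-miR-150 and 10.7-fold for bta-miR-142-5p, against a median of 1.45-fold. Without DF replicate 2 bta-miR-150 had a log2 fold change of -2.31 (adjusted p = 0.059) and bta-miR-142-5p one of -2.33 (adjusted p = 0.0813), and without replicate 2 of both classes the values were -3.12 and -3.29. bta-miR-142-3p was not called without SF replicate 1 (-2.51), SF replicate 3 (-2.57), DF replicate 1 (-2.85) or DF replicate 2 (-2.58), and stood at -4.90 without SF replicate 2. Erythrocyte miRNAs were lower in SF as well, bta-miR-451 with 52.6, 56.6 and 55.5 in SF and 172, 299 and 113 in DF (log2 fold change -1.76 ± 0.37, adjusted p = 0.00547) and bta-miR-486 with 409.9, 381 and 459 in SF and 1122, 2023 and 695 in DF (log2 fold change -1.56 ± 0.37, adjusted p = 0.0089). Without replicate 2 of both classes bta-miR-486 stood at -1.01. The third listed erythrocyte miRNA, bta-miR-144, was not tested, since it had 2 reads in DF replicate 1 and none in the other 5 libraries. The summed erythrocyte list ranged from 438 to 515 in SF and from 808 to 2322 in DF.

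The miR-146 family, which NF-κB induces and which represses the signalling proteins TRAF6 and IRAK1, was lower in SF in both members and was highest in DF replicate 2, as the leukocyte miRNAs were. bta-miR-146b had 323, 469 and 589 in SF and 2237, 5314 and 829 in DF (log2 fold change -2.56 ± 0.58, adjusted p = 0.00774). bta-miR-146a had 126, 309.5 and 123 in SF and 618, 1394 and 256 in DF (log2 fold change -1.96 ± 0.60, adjusted p = 0.0317), and its groups overlapped, SF replicate 2 lying above DF replicate 3. Without DF replicate 2 bta-miR-146b had -1.66 and bta-miR-146a -1.15 on the log2 scale, and bta-miR-146a was then not called (adjusted p = 0.167). Its call was also lost without SF replicate 1 (-1.73) or SF replicate 3 (-1.74), and returned without replicate 2 of both classes (-1.76, adjusted p = 0.00135). The part of blood cells in the values of miR-146, miR-155, miR-181 and other miRNAs that leukocytes share was not tested.

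**Figure D4:**
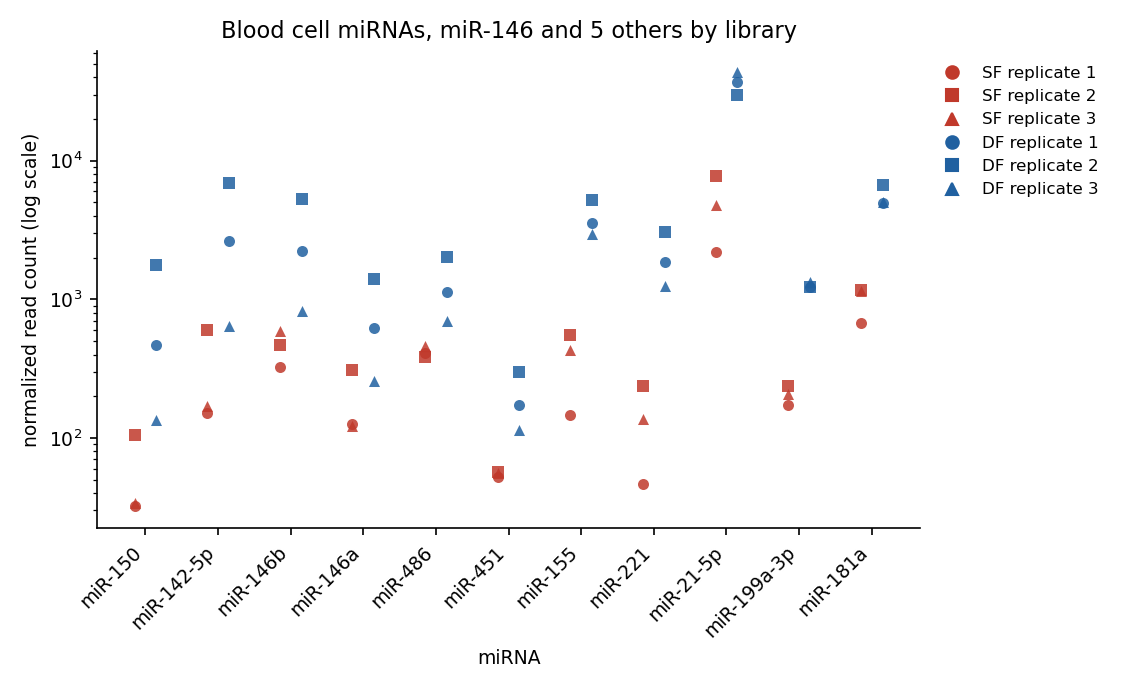
Normalized read counts (log axis) in each library for blood cell miRNAs, the miR-146 family and 5 other miRNAs lower in SF. DF replicate 2 (blue squares) is the highest for bta-miR-150, bta-miR-142-5p, miR-146, bta-miR-486 and bta-miR-451, which spread widely in DF, while the DF libraries of bta-miR-199a-3p and bta-miR-181a lie close together.

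Markers of other tissues gave 1 call among 12 tested names. A mean of at least 10 reads was reached by 2 endothelial, 2 epithelial and no muscle names. Below 10 reads 20.4% of all tested miRNAs were called, so few calls were to be had at this depth. Endothelial bta-miR-126-5p and bta-miR-126-3p were not called (0.27 ± 0.34 and -0.25 ± 0.42), and their summed counts were 90.9, 221 and 102 in SF and 130.0, 144.7 and 160.2 in DF. Of 9 epithelial names 7 were tested and none was called. Their sum was 74.0, 847 and 159.8 in SF and 500.3, 479 and 598 in DF, so that SF replicates 1 and 3 lay below the DF libraries and SF replicate 2 above them. SF replicate 2 stood apart through bta-miR-182 (47.2, 589 and 119.9 in SF and 346, 366 and 425 in DF) and bta-miR-183 (21.4, 249 and 36.1 in SF and 143, 98.1 and 165 in DF), which spread 12.5-fold and 11.6-fold in SF. bta-miR-205 had no read in any of the 6 libraries, and bta-miR-200c had 1 read each in SF replicate 3 and DF replicate 2. Of 4 muscle names 3 were tested, and bta-miR-133a was called lower in SF on a mean of 4.2 raw reads (log2 fold change -1.96 ± 0.63, adjusted p = 0.0372), lost without SF replicate 3 or DF replicate 3 (-1.72 each). bta-miR-206 had no read.

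SF replicates 1 and 2 took opposite places among the SF libraries for the called miRNAs with at least 10 reads. Replicate 2 was the highest SF library for 34 of the 47 miRNAs lower in SF and the lowest for 24 of the 37 higher in SF. Replicate 1 was the lowest SF library for 32 of the 47 and the highest for 23 of the 37. On a scale on which the DF mean is 0 and the SF mean is 1, the median position of the 84 miRNAs was 1.15, 0.86 and 0.99 in the SF libraries and 0.02, -0.08 and 0.06 in the DF libraries. Without both replicate 2 libraries 123 miRNAs were called, 52 higher and 71 lower in SF.

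The arms of a hairpin are cut from the same precursor. Of 9 hairpins with both arms at a mean of at least 10 reads, 6 had arms of the same sign, and the median difference between arms was 0.52 on the log2 scale. None had arms called in opposite directions. The arms of mir-17 differed most, by 2.02 (0.71 for bta-miR-17-5p and -1.30 for bta-miR-17-3p). For mir-423 the arm bta-miR-423-3p was higher in SF (808, 621 and 809 in SF and 292, 278 and 338 in DF, log2 fold change 1.37 ± 0.22, adjusted p = 0.000841), and bta-miR-423-5p was not called (0.45 ± 0.24). bta-miR-6119-3p was called higher (log2 fold change 1.46 ± 0.54, adjusted p = 0.0603), a call lost without SF replicate 1 (0.94), DF replicate 1 (1.48) or DF replicate 2 (1.26), beside bta-miR-6119-5p at 0.84 ± 0.26. The arms of mir-424 (-0.01 and -0.59) and mir-126 were not called.

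Neighbouring miRNAs were read from RefSeq (339 of the 350 names matched), with genes at most 10 kb apart counted as a cluster. Only the 153 names at a single locus with at least 10 reads entered. The cluster of bta-miR-17-3p, called lower, was therefore counted without bta-miR-92a, called higher. Of 23 such clusters, with 54 tested miRNAs of at least 10 reads, 17 had members of a single sign and 15 held a call. None of the clusters so counted held calls in both directions, and 7 held at least 2 calls, all in 1 direction. Those were miR-221 with miR-222, miR-23a with miR-27a, and miR-181c with miR-181d on the lower side. On the higher side they were miR-224 with miR-3431, miR-195 with miR-497, miR-15b with miR-16b, and miR-30c with miR-30e. Most of the clusters are pairs, and those of miR-17 and miR-424 include both arms of a hairpin. Of all 188 miRNAs with at least 10 reads 44.7% were called. No share for unrelated miRNAs grouped alike was computed, so the cluster counts are a description.

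The same contrast on day 3 shared no library with that of day 7, and the interaction of follicle class and day was tested over all 12 libraries. The difference between SF and DF changed between the days for 100 of 378 miRNAs (26.5%), and 83 of the 117 miRNAs called on day 7 were among them, 38 higher and 45 lower. The 117 were chosen by the day 7 libraries that also enter the interaction, so this overlap is no finding. On day 3, 106 of the 117 could be tested and 11 were called. These 11 are not separated by direction, and they are not set against the share called among all 335 miRNAs tested on day 3. Of the 47 miRNAs lower in SF on day 7 with at least 10 reads, bta-miR-184 was not tested on day 3. Of the other 46, 35 had a positive log2 fold change on day 3, with a median of 0.36 over all 46, and of the 37 higher ones 17 were positive, with a median of -0.04. Among those that stood on opposite sides on the 2 days was bta-miR-21-5p, at 1.71 on day 3 and -2.81 on day 7 (interaction -4.66 ± 0.44, adjusted p = 1.11e-06). bta-miR-155 stood at 1.96 and -3.30 (interaction -5.37 ± 0.55, adjusted p = 1.75e-06), and bta-miR-222 at 2.53 and -3.23 (interaction -5.85 ± 0.67, adjusted p = 5.41e-06). bta-miR-10b had a log2 fold change of 0.23 on day 3 and bta-miR-224 one of 0.31, neither of them called.

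**Figure D5:**
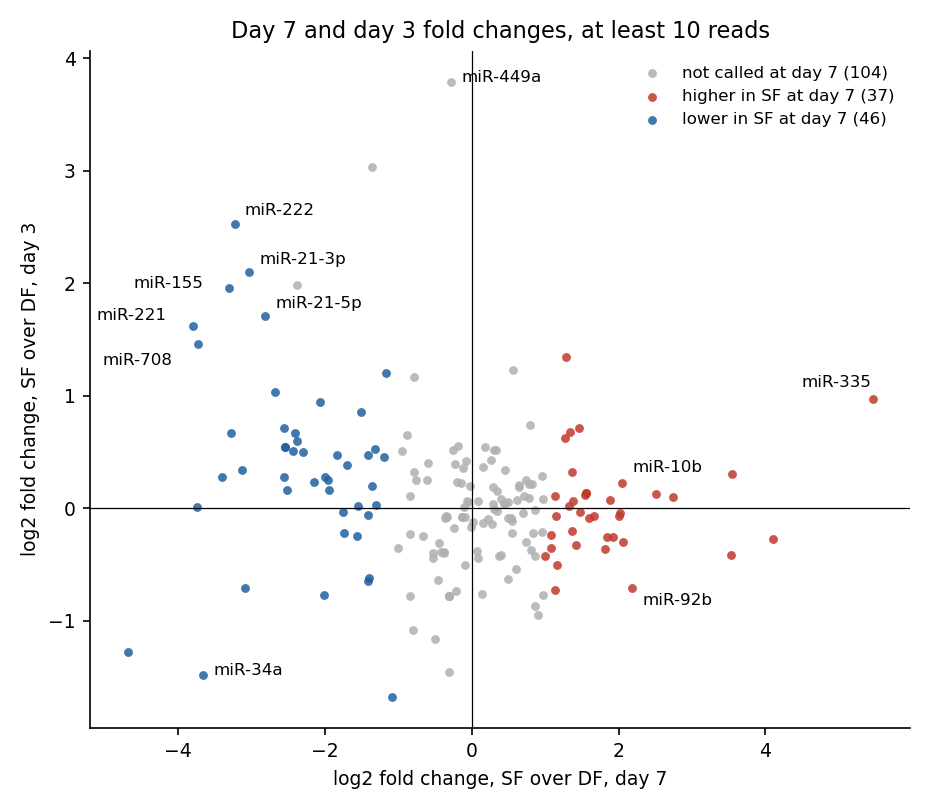
Log2 fold change of SF over DF on day 7 (x axis) and day 3 (y axis) for 187 miRNAs with a mean of at least 10 reads at day 7 that were also tested on day 3; colours mark the day 7 call. The range on day 3 is narrow for most miRNAs, and bta-miR-222, bta-miR-221, bta-miR-21-5p and bta-miR-155, lower in SF on day 7, lie above 0 on day 3.

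For the 37 miRNAs higher in SF the median change from day 3 to day 7 was -0.09 on the log2 scale in SF and -1.68 in DF. For the 47 lower in SF it was 0.24 in SF and 2.63 in DF. These medians are a description, since the miRNAs were chosen by the day 7 libraries that enter them.

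At the fold threshold, the called miRNAs with the smallest change were bta-miR-148b, bta-miR-16b, bta-miR-3432 (log2 fold change -1.08 ± 0.39, adjusted p = 0.0561), bta-miR-99b and bta-miR-25. The uncalled miRNAs with the largest change and at least 10 reads were bta-miR-2904 (5.35, 2.02 and 9.75 in SF and 3.42, 93.1 and 3.60 in DF, log2 fold change -2.37 ± 1.21, adjusted p = 0.166), which DF replicate 2 alone carried, bta-miR-449c, bta-miR-32 (13.4, 25.3 and 18.5 in SF and 42.8, 28.3 and 48.6 in DF, log2 fold change -0.998 ± 0.36, adjusted p = 0.0596), bta-miR-130a and bta-miR-194 (log2 fold change 0.97 ± 0.50, adjusted p = 0.175). The call of bta-miR-3432 was lost without SF replicate 1, SF replicate 3, DF replicate 1 or DF replicate 3, with log2 values between -1.13 and -0.92. In all, 22 miRNAs had an adjusted p of at most 0.10 with a smaller change than the threshold, bta-miR-32 and bta-miR-130a among them. Of the 117 calls, 83 were kept in each of the 6 fits that left out a library, 70 of them with at least 10 reads.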

How the data were processed

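Small RNA of bovine granulosa cells was sequenced (Illumina HiSeq, TruSeq small RNA protocol) in 4 groups of 3 biological replicates, formed by follicle class (SF, DF) and day (3, 7). Per the labels and the methods, the authors used CASAVA 1.8.0 for demultiplexing, FastQC and cutadapt for quality and adapters, Bowtie 2 for alignment to the bovine genome (UMD 3.1) and miRDeep2 to count reads on miRBase version 20. The deposited values are raw read counts per pair of mature miRNA and precursor, without normalization or filter. A read that matches several precursors can be counted at each, hence the use of 1 entry per mature name.

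The counts of the 6 libraries of day 7 (160418 to 326345 reads) were fitted in R 4.3.3 with edgeR 4.0.16, RLE (median-of-ratios) scaling and its quasi-likelihood F test, two-sided, with Benjamini-Hochberg adjustment, at the thresholds given with the results. Fold changes carry a prior count of 0.125, and their SE is the log2 value divided by the square root of F, an approximation. Counting error did not cover the spread within groups, where chi-square over degrees of freedom was 18.7 to 128. The common dispersion was 0.107. Families and markers were matched by family number. The miRNAs and lists were chosen with earlier results of these data known. Named were the 10 largest increases and decreases without overlap between groups and with at least 10 reads, the 10 most abundant miRNAs, called miRNAs without reads in a group, up to 4 members per list, the 5 hairpins whose arms differ most, and the 5 miRNAs on each side of the fold threshold. Grouping by seed was planned too and was not done, because no mature sequences were used here. bta-miR-339a and bta-miR-339b hold identical counts, so the 117 calls are 116 distinct count series.

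Alternatives were DESeq2 1.42.0, TMM factors, library size alone, other filters and detection rules, all 12 libraries in one fit, a 5% false discovery rate, a model with replicate numbers as blocks, sums over precursors, a prior count of 2 and leaving out each library. Leaving out replicate 2 of both classes was chosen after seeing the data. The labels give replicate numbers without an animal, so samples were not treated as paired. The deviations of same-numbered SF and DF libraries correlated at 0.0795, 0.0592 and 0.136. Those of differently numbered libraries were all lower, between -0.143 and 0.00887. Whether libraries of the same number share animals was not tested. Simulated tables with known changes served to check the fit.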

Additional observations from a re-analysis of the deposited data

Results flagged for a closer look

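For 29 miRNAs, the 10 largest increases, the 10 largest decreases and the 10 most abundant, the SF against DF difference on day 7 was compared with that on day 3 by the interaction of follicle class and day (edgeR quasi-likelihood F test over 12 libraries, day 7 minus day 3, on the log2 scale). It passed the thresholds for 23 of them, and against 26.5% of all 378 miRNAs this set was chosen for its day 7 values, so its share is no finding. The interaction was positive for bta-miR-335 (4.39), bta-miR-6526 (4.26), bta-miR-3431 (3.80), bta-miR-224 (3.1), bta-miR-92b (2.77), bta-miR-1343-3p (2.50), bta-miR-2285k (2.27), bta-miR-744 (2.23), bta-miR-505 (1.92), bta-miR-10b (1.70), bta-miR-99b (1.19) and bta-miR-191 (1.17). It was negative for bta-miR-222 (-5.85), bta-miR-221 (-5.54), bta-miR-155 (-5.37), bta-miR-708 (-5.30), bta-miR-21-5p (-4.66), bta-miR-193b (-4.06), bta-miR-150 (-3.84), bta-miR-142-5p (-3.79), bta-miR-23a (-3.56) and bta-miR-27b (-1.13). The value of bta-miR-184 (-12.24) rests on groups without reads and depends on the prior count. Adjusted p lay between 1.11e-06 and 0.0103 for these 23. Groups of 3 samples were not searched for single outlying samples.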

How the results depend on the processing

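The 117 calls became 104 with DESeq2 (103 of them shared, and 88 miRNAs without an adjusted p), 116 with TMM, 117 with library size alone, 118 without a filter, 85 with a filter of at least 10 reads in 3 of 6 libraries (fewer miRNAs tested), 124 with all 12 libraries, 118 with summed precursors, 115 with the replicate block (48 higher and 67 lower in SF), 101 at a false discovery rate of 5%, 114 with a prior count of 2, 98 to 118 without a library, and 123 without replicate 2 of both classes. The split of 53 higher and 64 lower moved to 46 and 71 with library size alone, which shifted the median log2 fold change by -0.15. The replicate number is not tied to animals, and the replicate block is given for completeness. The interaction count of 100 was 97 with DESeq2, 102 with TMM, 106 with the replicate block, 104 without replicate 2 of both classes and 90 to 106 without a library. None of the 79 called miRNAs among the 135 named changed sign in any of 17 settings, and 80 of the 117 calls (34 higher, 46 lower) were kept in every setting that gave the miRNA an adjusted p.

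Signs changed for 10 named miRNAs that were not called, and the cause was not tested. Over the fits without a library the log2 fold change ranged from -0.099 to 0.511 for bta-miR-99a-3p, from -0.479 to 0.42 for bta-miR-125b, from -0.901 to 0.215 for bta-miR-301b, from -0.17 to 0.13 for bta-miR-148a, from -0.485 to 0.096 for bta-miR-378b, from -0.141 to 0.481 for bta-miR-126-5p, from -0.947 to 0.038 for bta-miR-126-3p, from -0.28 to 0.245 for bta-miR-424-5p and from -2.98 to 0.763 for bta-miR-2904. Without replicate 2 of both classes it was -0.148 for bta-miR-99a-3p, 0.349 for bta-miR-125b, 0.08 for bta-miR-378b, -0.151 for bta-miR-126-5p and 1.126 for bta-miR-2904. bta-miR-26b had -0.066 with library size alone, and bta-miR-424-5p had 0.006 with summed precursors and 0.061 with the replicate block.

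Depth limits the 162 miRNAs with a mean under 10 reads. Their calls rest on few reads, and a miRNA without a read in a group is below 3 reads over it, not absent. The SF libraries are pools of follicles, how the dominant follicles were divided among the DF libraries is not given, and no animal is recorded for a replicate.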
